A study of Acidomyces sp. 'richmondensis' with 12 samples.

Results

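Of the 10043 listed genes of the fungus Acidomyces richmondensis MEY-1, 51 had a higher level with copper by a fixed minimum in both a strain labelled as lacking ArAceA and its wild type, and they are described here across 12 RNA-seq libraries. A gene was taken if log2(mean FPKM + 1) rose by at least 1 with copper in ∆ArAceA and also in WT, if its highest group mean was at least 5 FPKM, and if its mean over the 12 libraries was under 1000 FPKM. FPKM counts the sequenced fragments of a gene for each kilobase of its transcript, scaled to the whole library, so it is a share of the RNA, and fewer expressing cells cannot be told apart from less RNA per cell. The 2 copper changes alone were met by 57 genes, of which 6 were left out for a highest group mean under 5 FPKM and 0 for the upper limit. The genes were thus chosen by their measured rises with copper, which are described below without a test.

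Mycelium of a strain labelled as carrying a deletion of ArAceA (∆ArAceA) and of the wild type (WT) was grown for 4 days in liquid MMC medium, washed, and moved to fresh medium of the same kind for 6 h. The 4 groups were ∆ArAceA with 15 mM CuCl2, ∆ArAceA without copper, WT with 15 mM CuCl2 and WT without copper, each of 3 separate cultures. The labels name no number of independent deletion clones, and they give the growth temperature as 28 °C in one place and 30 °C in another for all samples alike. The FPKM of a library summed to between 884111 and 926713. How many reads stood behind it is unknown, and relative depths read from the steps between low values ran from 0.98 to 1.053. Only low values close to each other were paired for this, so a large difference in depth could not show, and equal depth is not concluded.

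Copper is an essential cofactor that becomes toxic in excess, because the free ion drives redox reactions and displaces other metals from proteins. Fungi meet an excess by pumping copper out of the cytosol, by binding it to small cysteine-rich proteins and by raising defences against oxidants. In Aspergillus fumigatus the transcription factor AceA, whose name ArAceA shares, switches on the genes of a copper-exporting ATPase and of a metallothionein when copper is high. The files list the genes of A. richmondensis by locus identifiers only and do not pair them with names. No role is therefore given to any of the 51 genes. The level of ArAceA itself was not analysed here, so the genotypes stand as labelled.

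The 51 genes were of low level without copper and of middling level with it. Their median group mean was 23.8 FPKM in ∆ArAceA with copper, 5.59 FPKM in ∆ArAceA without copper, 14.7 FPKM in copper-treated WT and 4.31 FPKM in WT without copper. Over all 8741 genes that entered the statistical fit, the same medians were 21.3, 21.8, 19.01 and 19.2 FPKM. Without copper 24 of the 51 genes had a mean under 5 FPKM in ∆ArAceA and 29 in WT. With copper 1 of them did in ∆ArAceA and 8 did in WT. Means of 100 FPKM or more were reached by 12 genes in ∆ArAceA with copper, 3 in ∆ArAceA without copper, 10 in WT with copper and 2 in WT without copper.

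Added together, the transcripts of the 51 genes were a small part of each library. Their summed level was 5828 ± 271 FPKM in ∆ArAceA with copper and 1171 ± 59.6 FPKM in ∆ArAceA without copper (mean ± SD, n = 3 cultures in each group). In WT it was 3411 ± 214 FPKM with copper and 1035 ± 138 FPKM without copper. These sums were 0.658 ± 0.0303% and 0.132 ± 0.00681% of all FPKM in ∆ArAceA, with and without copper, and 0.376 ± 0.0197% and 0.114 ± 0.0167% in WT. The sums rested on few genes, since the 5 largest held 59.2% of the sum in ∆ArAceA with copper and 57.2% in WT with copper. Taking the group means, copper added 4657 FPKM over the 51 genes in ∆ArAceA and 2376 FPKM in WT, and the gain in FPKM was larger in ∆ArAceA for 38 genes.

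**Figure D1:**
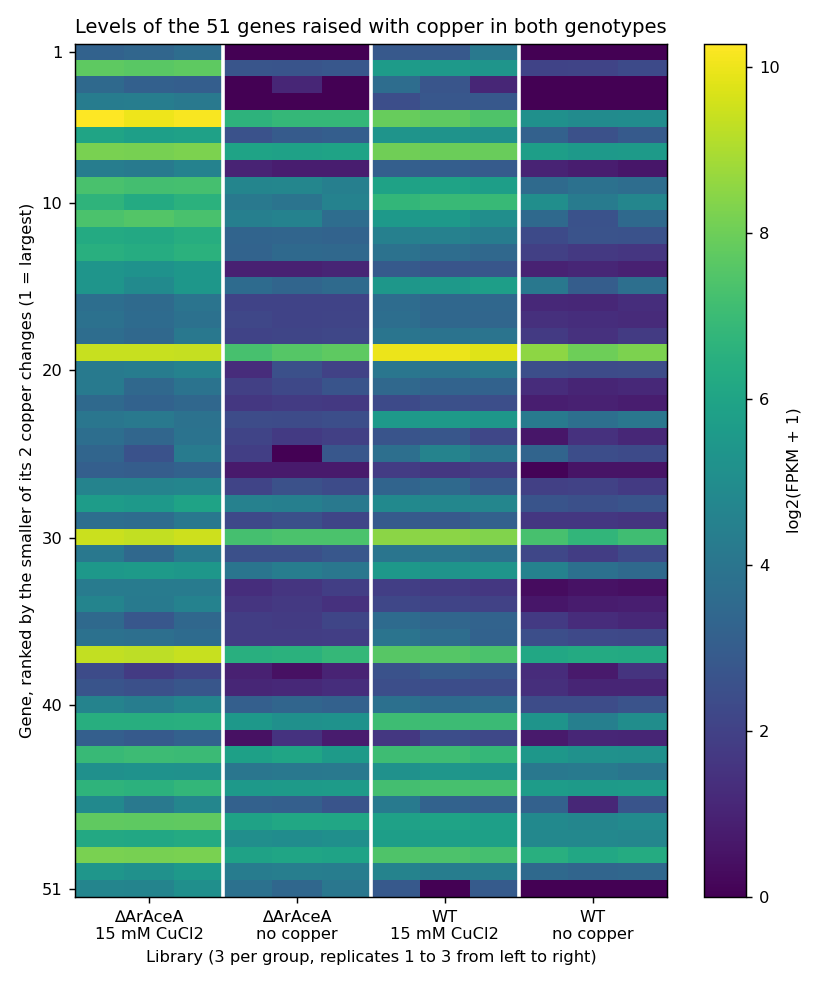
Level of each of the 51 genes (rows, ranked by the smaller of the copper changes in ∆ArAceA and WT) in each of the 12 libraries (columns, 3 per group), as log2(FPKM + 1) in colour. The libraries with copper are brighter than those without in both genotypes for most rows, and few rows are bright in all 12 libraries.

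The copper changes, measured on log2 of the group mean plus 1, ran from 1.02 to 4.99 in ∆ArAceA, with a median of 1.76, and from 1.02 to 3.43 in WT, with a median of 1.62. Over all genes fitted the medians were -0.04 in ∆ArAceA and -0.01 in WT. The change lay under 1.5 for 14 genes in ∆ArAceA and 20 in WT, and at 3 or more for 9 genes in ∆ArAceA and 2 in WT. In 11 genes it was at least 2 in both genotypes, and in 6 genes it was under 1.5 in both. As ratios of group means, copper over no copper, the genes lay between 2.11 and 40.9 in ∆ArAceA and between 2.07 and 12.9 in WT, leaving out 2 and 4 genes listed at 0 without copper.

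For most of the 51 genes the single libraries with copper all lay above those without it. All 3 libraries with copper lay above all 3 without it for 50 of the 51 genes in ∆ArAceA, where 28.9% of all genes fitted did so, and for 49 in WT, where 16.4% did. Both held for 48 genes, against 6.64% of all genes fitted. By limma at an adjusted p under 0.05 the rise was called in 50 genes in ∆ArAceA and in 48 in WT, where 24.7% and 10.6% of all genes were called higher. The authors' deposited table listed 49 of the 51 genes as higher with copper at a Q under 0.05 in ∆ArAceA (24.3% of all genes with a Q) and 48 in WT (6.16%). Nothing is read from these counts, since the same changes chose the genes.

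M433DRAFT_154429 had the largest copper change of the 51 genes in ∆ArAceA, and the second largest smaller change of all. It stood at 211, 202 and 214 FPKM in ∆ArAceA with copper and at 5.53, 5.4 and 5.85 FPKM in ∆ArAceA without it. In WT it stood at 48.8, 45.9 and 40.3 FPKM with copper and at 3.19, 3.28 and 3.98 FPKM without it. The ranges of the 4 groups did not overlap, and the means differed 37.4-fold with copper in ∆ArAceA and 12.9-fold in WT.

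M433DRAFT_49808 led the order by the smaller of its changes. Its level was 8.5, 9.49 and 11.7 FPKM in ∆ArAceA with copper and 6.37, 6.23 and 16.8 FPKM in WT with copper, and it was listed at 0 in all 6 libraries without copper. The last of these WT libraries lay far above the other two, so the copper groups of the genotypes overlapped. Another gene was likewise listed at 0 in all 6 libraries without copper, with 18.99, 19.3 and 17.0 FPKM in ∆ArAceA with copper and 4.60, 5.95 and 6.08 FPKM in WT with copper. No fold is given for either gene. A value of 0 means only that the gene was listed at 0.

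The highest single group mean among the 51 genes was that of M433DRAFT_517439, at 1145 FPKM in ∆ArAceA with copper. It reached 1241, 1027 and 1168 FPKM in ∆ArAceA with copper, against 98.7, 113 and 113 FPKM in ∆ArAceA without copper, a 10.6-fold difference of means. In WT it reached 239, 213 and 175 FPKM with copper, against 34.3, 30.4 and 30.7 FPKM without copper, a 6.57-fold difference. Each ∆ArAceA library lay above every WT library of the same condition, by 5.48-fold in the means with copper and 3.40-fold without.

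M433DRAFT_157673 had the next highest group mean and the opposite order of genotypes. Over all 12 libraries it was the more abundant, with a mean of 533.3 FPKM, against 373.6 FPKM for M433DRAFT_517439. It stood at 685, 683 and 666 FPKM in ∆ArAceA with copper and at 155, 188 and 212 FPKM in ∆ArAceA without copper. WT libraries stood at 1012, 995 and 870.3 FPKM with copper and at 372, 258 and 304 FPKM without copper. Copper multiplied the mean 3.67-fold in ∆ArAceA and 3.08-fold in WT.

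**Figure D2:**
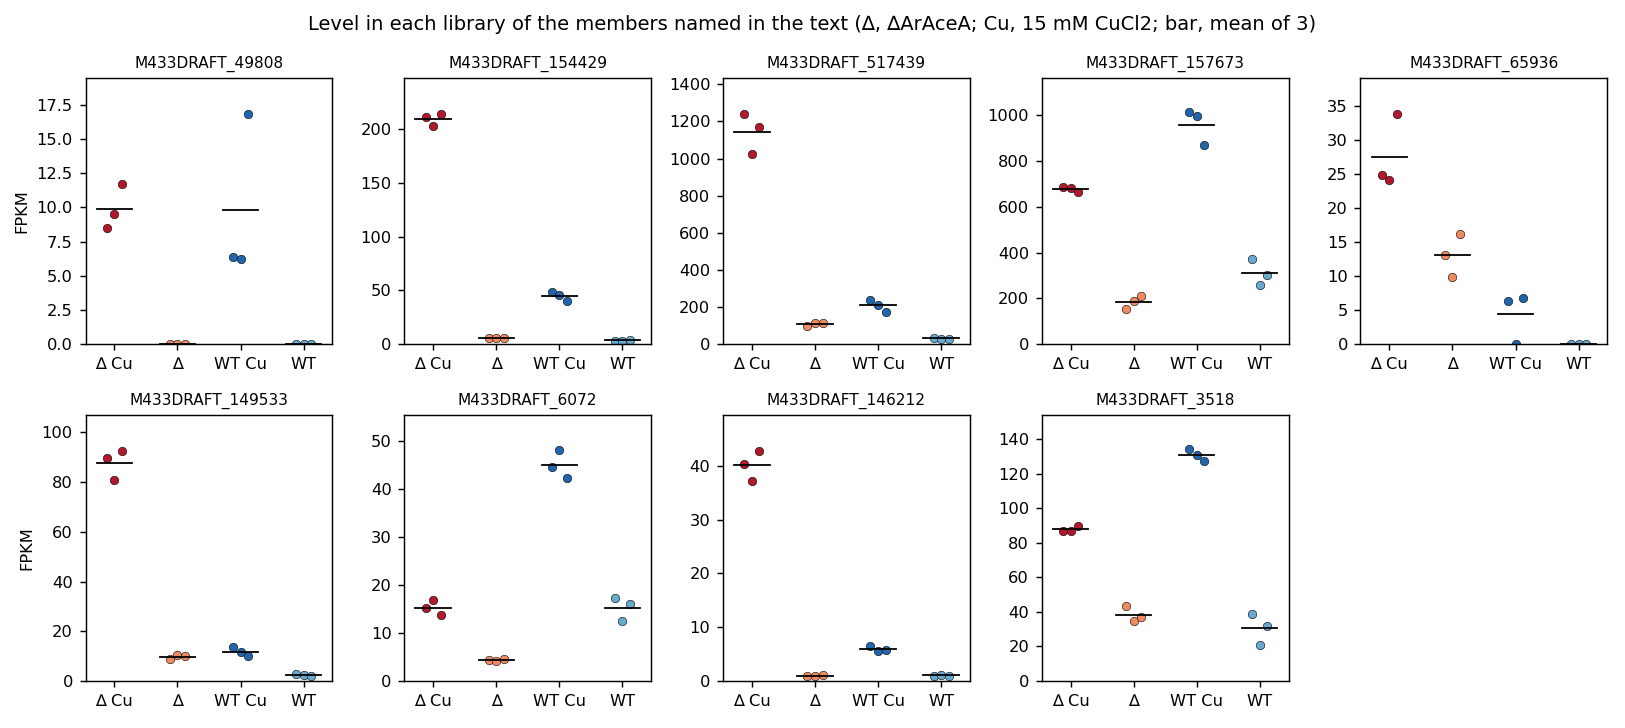
FPKM in each of the 12 libraries (points) and the mean of 3 (bars) for the 9 genes named in the text, each on its own linear axis from 0, with ∆ for ∆ArAceA and Cu for 15 mM CuCl2. M433DRAFT_154429 and M433DRAFT_146212 are far highest in ∆ArAceA with copper, M433DRAFT_6072 and M433DRAFT_157673 are lower in ∆ArAceA than in WT in both conditions, and M433DRAFT_49808 is listed at 0 in all 6 libraries without copper.

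Around the threshold the choice was close. The 3 genes nearest inside it had smaller changes of 1.02, 1.02 and 1.04, and the 3 nearest outside, with the level criteria met, had 0.98, 0.97 and 0.97. The first of these outside had means of 36.1 and 7.44 FPKM in ∆ArAceA with and without copper, and of 27.8 and 13.6 FPKM in WT. The last of those inside had means of 294 and 61.8 FPKM in ∆ArAceA with and without copper, and of 164 and 79.3 FPKM in WT.

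Whether the level of these genes differed between the genotypes was asked with a difference that the copper changes in the choice of genes did not use. This was the mean of ∆ArAceA over both conditions minus the mean of WT over both conditions, whose weights on the 4 groups are orthogonal to both copper changes. The minimum level of 5 FPKM took whichever group was highest, so a gene could enter through 1 genotype alone. This held for 8 genes that reached it in ∆ArAceA only and for 1 that reached it in WT only. Their calls, 7 higher and 1 not called among the 8 and 1 lower for the other, are therefore given with no test. By limma on log2(FPKM + 1), fitted over all 8741 genes with Benjamini-Hochberg adjustment, 25 of the 42 genes that reached the minimum in both genotypes were higher in ∆ArAceA, 4 were lower and 13 were not called. These were 59.5% and 9.52% of the 42, against 44.5% and 15.4% of the 6604 fitted genes that met the same level limits in both genotypes. The median log2 difference was 0.53 for the 42 and 0.09 for the 6604.

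The scaling of the libraries moved these values for all genes. After median-of-ratios scaling 22 of the 42 were higher and 6 lower, against 27.5% and 36.6% of the 6604, and the medians were 0.42 for the 42 and -0.04 for the 6604. Over all 51 genes 32 were called higher and 5 lower, against 45.8% and 14.6% of all genes fitted (60.4% in either direction). These 51 include the 8 and the 1 that reached the minimum in 1 genotype only, and all genes fitted were not held to that level. The counts over the 51 are therefore a description. After median-of-ratios scaling 28 of the 51 were called higher and 7 lower, against 30.9% and 31.6% of all genes fitted. The median of all genes fitted was 0.12 as deposited and -0.01 after that scaling.

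The 2 largest of these differences towards ∆ArAceA among the 51 genes were in M433DRAFT_65936 and M433DRAFT_149533. M433DRAFT_149533 had 89.7, 80.9 and 92.7 FPKM in ∆ArAceA with copper and 8.78, 10.3 and 10.1 FPKM in ∆ArAceA without copper. In WT it had 13.6, 11.6 and 10.1 FPKM with copper and 2.91, 2.29 and 2.08 FPKM without copper. Its ∆ArAceA cultures without copper thus overlapped its WT cultures with copper, and within each condition the genotypes were apart. The fitted log2 difference over both conditions was 2.23 (SE 0.078, limma adjusted p = 5.18e-11), with ∆ArAceA higher in all 6 libraries than any WT library of the same condition.

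M433DRAFT_65936 was detected in all ∆ArAceA libraries and in 2 of those of WT, both with copper. It stood at 24.8, 24.0 and 33.7 FPKM in ∆ArAceA with copper and at 13.2, 9.88 and 16.1 FPKM in ∆ArAceA without copper. In WT it stood at 6.39, 0 and 6.80 FPKM with copper, and it was listed at 0 in all 3 libraries without copper. It reached the minimum level in ∆ArAceA only, so its difference is a description. The fitted difference was 3.33 (SE 0.48), and it was 5.53 with a pseudocount of 0.1 in place of 1, so its size depends on how values of 0 are treated. The rise with copper of this gene was not called by limma in either genotype, and its WT mean with copper rested on 2 of 3 libraries. In ∆ArAceA all 3 libraries with copper lay above all 3 without. The authors' deposited table listed the gene as higher with copper at a Q under 0.05 in ∆ArAceA (log2 ratio 1.06) but not in WT (0.207).

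The largest difference towards WT was in M433DRAFT_6072. Its levels were 15.2, 16.8 and 13.7 FPKM in ∆ArAceA with copper and 4.30, 4.15 and 4.54 FPKM in ∆ArAceA without copper. WT cultures held 44.7, 48.2 and 42.3 FPKM with copper and 17.2, 12.52 and 16.0 FPKM without copper. ∆ArAceA with copper, at a mean of 15.2 FPKM, thus lay level with WT without copper, at 15.3 FPKM, while copper multiplied the mean 3.52-fold in ∆ArAceA and 2.95-fold in WT. The fitted difference over both conditions was -1.55 (SE 0.073, limma adjusted p = 9.7e-10). Among the called genes M433DRAFT_157673 followed at -0.62 (SE 0.094, limma adjusted p = 0.000171), lower in ∆ArAceA in all 3 libraries of each condition.

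Within each condition limma called the genotypes different in similar numbers of the 51 genes. These differences share libraries with the copper changes that chose the genes and are given as values. With copper 29 genes were called higher and 5 lower in ∆ArAceA, where 35.4% and 11.4% of all genes were (46.7% in either direction). Without copper the counts were 29 and 4, where 40.8% and 17.9% of all genes were (58.7%). Under median-of-ratios scaling they were 27 and 6 with copper, where 21.7% and 21.5% of all genes were, and 25 and 7 without, where 30.9% and 31.7% were. In 23 genes ∆ArAceA was called higher in both conditions, in 2 it was called lower in both, and in 10 it was called in neither, where 20%, 4.84% and 26.4% of all genes were. All 3 ∆ArAceA libraries lay above all 3 WT libraries in both conditions for 21 genes, which 23.5% of all genes did, and below them in both for 2, which 5.77% did. The ratio of means, ∆ArAceA over WT, had a median of 1.79 with copper, with a range of 0.338 to 7.46, and a median of 1.47 without copper, with a range of 0.284 to 5.92 over the 47 genes not listed at 0 in WT. With copper 20 genes were at least 2-fold higher in ∆ArAceA by the means, and 20 lay within 1.5-fold of WT. Without copper, 13 of the 47 were at least 2-fold higher and 19 lay within 1.5-fold.

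The authors' deposited table listed 25 of the 51 genes as higher and 8 as lower in ∆ArAceA with copper at a Q under 0.05, where 15.6% and 17.2% of all genes with a Q were. Without copper the authors' deposited table gave 20 higher and 5 lower of the 49 with a Q, against 23.9% and 24.1% of all genes. The median log2 ratio in the authors' deposited table was 0.56 over the 51 genes with copper and 0.42 over the 49 without.

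**Figure D3:**
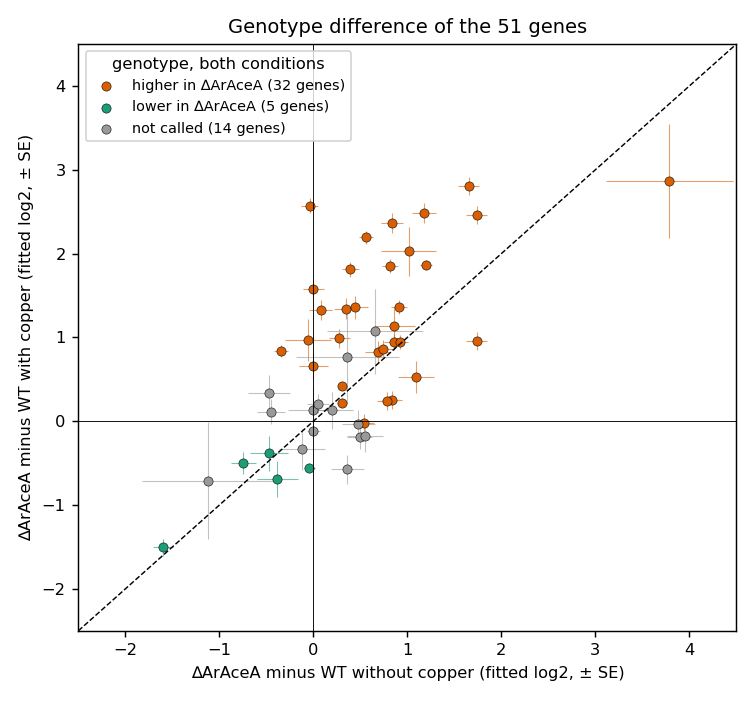
Fitted log2 difference of ∆ArAceA minus WT with copper (vertical) and without copper (horizontal) for the 51 genes, with standard errors as lines and equal differences along the dashed line. Colours give the call of the genotype difference over both conditions, with 32 genes higher in ∆ArAceA, 5 lower and 14 not called.

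The highest of the 4 group means was in ∆ArAceA with copper for 38 genes and in WT with copper for the other 13. The lowest was in ∆ArAceA without copper for 15 genes and in WT without copper for 36. The mean of ∆ArAceA without copper was below that of WT with copper in all but 2 genes. M433DRAFT_65936 was one of these. The other stood at 59.5, 68.4 and 66.4 FPKM in ∆ArAceA without copper, against 58.3, 61.8 and 55.0 FPKM in WT with copper, which overlap.

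The size of the copper change differed between the genotypes in part of the genes. This difference, the change in ∆ArAceA minus the change in WT, is made of the 2 changes that chose the genes, each held at 1 or more, so it too is a description. By limma 19 of the 51 genes had a larger change in ∆ArAceA, where 20.2% of all genes had a more positive one, 8 had a larger change in WT, where 25.6% of all genes had a more negative one, and 24 had no called difference. Differences in either direction were called in 45.8% of all genes. The fitted changes were larger in ∆ArAceA by at least 2-fold in 11 of the 19, where 1.05% of all genes had a called positive difference as large. In 0 of the 8 were they larger in WT by as much, where 4.77% of all genes had a called negative difference of that size. All genes include those lowered with copper, which the choice of the 51 left out, so these shares are not those of a like set. The minimum of 1 on both changes limits how far either side can go.

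The 19 genes with the larger change in ∆ArAceA went high there with copper. Their median group mean was 59.2 FPKM in ∆ArAceA with copper and 5.59 FPKM in ∆ArAceA without copper, against 11.8 and 3.48 FPKM in WT. Since they were split off by this difference, a higher level in ∆ArAceA with copper is part of how they were chosen. M433DRAFT_146212 had the largest difference. It stood at 40.3, 37.3 and 42.8 FPKM in ∆ArAceA with copper and at 0.93, 0.90 and 1.11 FPKM in ∆ArAceA without copper. In WT it stood at 6.57, 5.47 and 5.72 FPKM with copper and at 1.0, 1.15 and 0.95 FPKM without copper. The genotypes overlapped without copper and lay 6.78-fold apart in the means with it, and the fitted difference of the changes was 2.61 (SE 0.131). M433DRAFT_154429, described above, came next at 1.63 (SE 0.11).

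The 8 genes with the larger change in WT had a lower ratio of ∆ArAceA to WT with copper than without it, which the split again fixes. Their median group mean was 32.7 FPKM in ∆ArAceA with copper and 11.6 FPKM in ∆ArAceA without copper, against 20.5 and 3.67 FPKM in WT. M433DRAFT_3518 had the most negative difference among all 51 genes, at -0.93 (SE 0.244). It had 87.2, 86.9 and 89.5 FPKM in ∆ArAceA with copper and 43.2, 34.7 and 37.2 FPKM in ∆ArAceA without copper, against 134, 131 and 128 FPKM in copper-treated WT and 38.7, 20.7 and 32.0 FPKM in WT without copper. The genotypes overlapped without copper, and with copper every ∆ArAceA library lay below every WT library. Next came M433DRAFT_65936, which is not among the 8, since its difference of -0.92 (SE 0.96) was not called. Without the second WT library with copper, which listed it at 0, the difference was -1.90 and was called.

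A pair of genes among the 8 had nearly the same levels in every group. The first had means of 12.48 and 3.21 FPKM in ∆ArAceA with and without copper, and 10.3 and 1.36 FPKM in WT. The second had 12.6 and 3.34 FPKM in ∆ArAceA, and 10.5 and 1.53 FPKM in WT. Whether they share sequence, and so reads, was not tested.

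**Figure D4:**
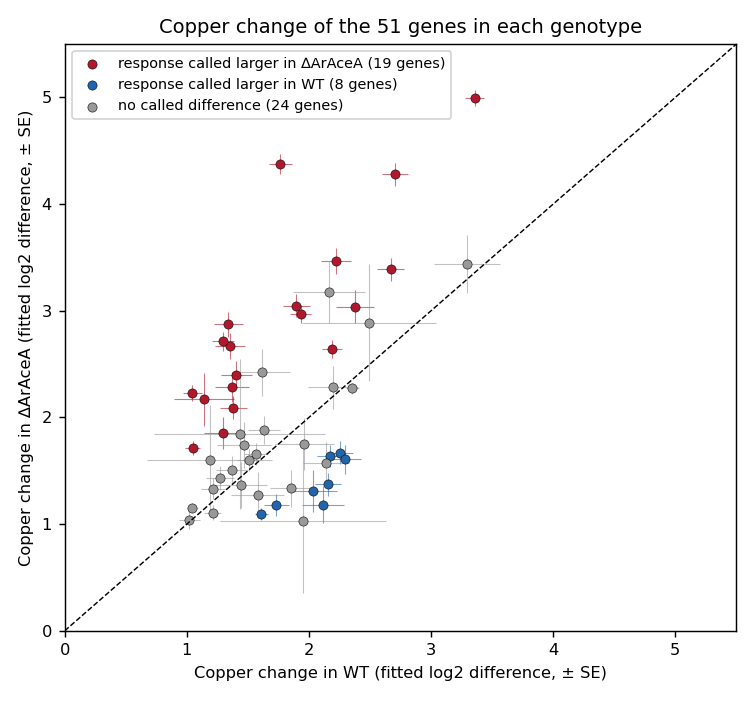
Fitted log2 copper change in ∆ArAceA (vertical) and in WT (horizontal) of the 51 genes, with standard errors as lines and equal changes along the dashed line. In 19 genes (red) the change was called larger in ∆ArAceA, in 8 (blue) larger in WT, and 24 (grey) had no called difference.

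The 24 genes without a called difference had median copper changes of 1.61 in ∆ArAceA and 1.56 in WT. The closest match between genotypes was in a gene with 41.5, 36.2 and 45.5 FPKM in ∆ArAceA with copper and 18.9, 19.9 and 19.5 FPKM in ∆ArAceA without copper. In WT this gene had 23.4, 19.6 and 19.7 FPKM with copper and 10.4, 9.28 and 9.67 FPKM without copper. Copper multiplied its mean 2.12-fold in ∆ArAceA and 2.14-fold in WT, with ∆ArAceA 1.97-fold above WT with copper and 1.99-fold without. Its fitted difference of changes was 0.02 (SE 0.121). Another of the 24 had 295, 288 and 301 FPKM in ∆ArAceA with copper and 60.6, 58.4 and 61.7 FPKM without, against 267, 251 and 241 FPKM in copper-treated WT and 52.8, 46.5 and 47.0 FPKM without. Its difference of changes was -0.08 (SE 0.076). A call that is missed does not show equal changes, since the standard errors among the 51 genes ran from 0.068 to 0.992.

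The spread between replicate cultures was larger at the median for the 51 genes than for all genes. The within-group SD of log2(FPKM + 1) had a median of 0.153 over the 51 genes and 0.095 over all genes fitted, and it ran from 0.045 to 0.899. The gene of the largest spread had 9.17, 5.03 and 18.4 FPKM in ∆ArAceA with copper and 2.75, 0 and 5.85 FPKM in ∆ArAceA without copper, against 12.4, 23.5 and 14.8 FPKM in copper-treated WT and 8.91, 4.45 and 3.89 FPKM in WT without copper. Its ∆ArAceA groups overlapped, though limma called the rise there, close to the limit (adjusted p = 0.0497). Its WT groups did not overlap, and limma did not call the rise in WT. The authors' deposited table had the reverse, with a Q under 0.05 in WT and not in ∆ArAceA. The other gene not called in WT besides M433DRAFT_65936 had 17.8, 8.36 and 7.6 FPKM there with copper and 8.13, 1.21 and 5.36 FPKM without copper, which overlap.

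Some libraries lay to one side over the 51 genes as a set. The median deviation from the group mean was -0.10 in the second ∆ArAceA library with copper, 0.08 in the third, -0.08 in the third WT library with copper and 0.07 in the first WT library of each condition. Over all genes fitted the same deviations were -0.02, 0.02, 0.01, and -0.001 with and -0.03 without copper. The third ∆ArAceA library with copper was the highest of its group in 29 of the 51 genes. The first WT library without copper was highest or tied for highest in 30. That count includes the genes listed at 0 in all 3 WT libraries without copper.

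The genotype difference over both conditions was also taken for the genes that passed the same thresholds in one genotype only. Many of these genes also rose in the other genotype by less than the minimum. With copper, limma called 46 of the 90 genes of ∆ArAceA only higher in WT and 3 lower, where 10.6% and 10.7% of all genes were. It called 19 of the 39 genes of WT only higher in ∆ArAceA and 9 lower, where 24.7% and 31.5% of all genes were. Of the 90 genes that met the minimum change in ∆ArAceA only, 69 reached 5 FPKM in both genotypes. Between genotypes, 36 of these were called higher in ∆ArAceA and 13 lower. Of the 39 that met it in WT only, 33 reached 5 FPKM in both, and 21 were higher and 8 lower. The shares called higher were 59.5% of the 42 genes above, 52.2% of the 69 and 63.6% of the 33, against 44.5% of the 6604 genes, and the shares called lower were 9.52%, 18.8% and 24.2%, against 15.4%. After median-of-ratios scaling the 69 had 31 higher and 18 lower and the 33 had 16 and 8, where 27.5% and 36.6% of the 6604 were called. The differences between these shares were not tested.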

How the data were processed

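RNA was sequenced from mycelium of 12 cultures, 3 in each of 4 groups taken from the sample titles. The authors deposited FPKM per library, and log2 ratios with Q-values (adjusted p-values) for 4 comparisons, per the file headers; the tables per library and for the series held the same FPKM, and 0 columns were left unmapped. HISAT2 2.1.0, RSEM 1.2.8 and DESeq2 are named with no role, per the submitters' processing notes; genome build and annotation are not given in the sources used here, and reads shared between similar genes were not analysed.

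The 51 genes were chosen by their copper changes in these data, and the genes, comparisons and lists were chosen with earlier results of these data known. A count test had no counts to use, so limma 3.58.1 in R 4.3.3 (trend, robust) was run on log2(FPKM + 1), two-sided, for 8741 genes of at least 1 FPKM in at least 3 libraries, leaving out 1302. All 51 genes passed this filter, which their rise favours. A single fit over 4 groups gave 6 comparisons, each adjusted by Benjamini-Hochberg over all genes and called at an adjusted p under 0.05. This scale understates changes of low genes; folds beside FPKM are ratios of means. The fit was tried on simulated data that held genotype differences only. Copper changes, and a choice of genes by them, were not simulated.

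Named genes are the first 2 by the smaller copper change, by highest group mean, and by size in each direction of the genotype difference (among called genes) and of the difference of copper changes. The rule fixed beforehand took the first 4, but identifiers without names are printed for 2 only, and genes it took for spread or nearness to the threshold are given without identifiers. Relative depth came from 471 pairs of low values in 159 genes. Lists of gene functions were not used here, for want of names. Alternatives were other pseudocounts, filters, scalings, fits and thresholds, the replicate number as a block, and leaving out each library.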

Additional observations from a re-analysis of the deposited data

Results flagged for a closer look

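The copper response was called larger in ∆ArAceA in 19 of the 51 genes and larger in WT in 8, by limma's test of the difference fitted over all genes, where 20.2% of all genes had a called positive difference and 25.6% a called negative one (45.8% in either direction). Among the genes named, M433DRAFT_146212 had a difference, ∆ArAceA minus WT, of 2.61 on the log2 scale, M433DRAFT_154429 of 1.63 and M433DRAFT_3518 of -0.93. The changes that make up these differences also chose the genes, so the counts are a description.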

How the results depend on the processing

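The genotype difference over both conditions was called in 37 of the 51 genes, where 60.4% of all genes were. The 51 include the genes that reached the minimum level in 1 genotype only, so their counts are a description. This difference was called in 34 to 38 under other pseudocounts, filters and scalings and with the replicate number as a block (38). More of the 51 genes were higher than lower in ∆ArAceA each time. All genes had that lean as deposited (45.8% against 14.6%) but not after median-of-ratios scaling (30.9% against 31.6%). Leaving out 1 library gave 35 to 39 calls among the 51. Of the 42 genes that reached the minimum level in both genotypes, a restriction chosen after seeing the data, 29 were called. Of the 6604 genes at that level, 44.5% were higher and 15.4% lower. Called differences of copper changes numbered 27, where 45.8% of all genes had one. They numbered 25 to 27 under those alternatives (27 with the replicate block), and 24 to 26 with a library left out. Leaving out a library gave 31 to 36 calls for the genotypes with copper (34 with all, and with the block), 29 to 33 without copper (33, likewise with the block), 48 to 50 for copper in ∆ArAceA (50, and 49 with the block) and 48 to 49 for copper in WT (48, likewise with the block). Of all genes, 46.7% were called between the genotypes with copper and 58.7% without. With copper, 24.7% of all genes were called higher in ∆ArAceA and 10.6% in WT. The block changed no count by more than 1, and same-numbered libraries did not deviate together, at r between -0.175 and 0.0656 in 18 pairs with 0 over 0.1, while 5 of 36 other pairs were.

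The number of genes chosen depended on the thresholds. It was 51, and 23 with a minimum change of 1.5, 68 with 0.8, 62 with a pseudocount of 0.1, 43 with a minimum level of 10 FPKM and 57 with 1 FPKM, 52 to 55 under other scalings, and 49 to 55 with 1 library left out.

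Of 312 values of single named genes under the alternatives, 311 kept direction and call. The difference of copper changes of M433DRAFT_65936 was called without WT_Cu replicate 2, the library that listed it at 0, at -1.90 against -0.92 with all. The number of reads is unknown, so a listing at 0 sets no upper limit on a level.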
